A study of Bos taurus with 16 samples.

Results

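A set of 6 genes that mark cells of the macrophage line were followed in the corpus luteum of the cow, a temporary ovarian gland that secretes progesterone. The genes are ITGAM, CYBB, CD68, MRC1, AIF1 and FCGR1A, 6 of 6701 gene symbols that could be given to the 15208 probes of the array, each with 1 probe. They were selected on the measured values of these same arrays: ITGAM and CYBB stood higher late in pregnancy than in cyclic cows, and CD68, MRC1, AIF1 and FCGR1A stood lower. Their differences between groups are therefore given as a description with no test.

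Luteal total RNA of 16 cows of the Japanese Black breed, 4 separate animals in each of 4 groups, was hybridised to 1-colour bovine arrays. The groups are non-pregnant cows on days 10-12 of the estrous cycle, called cyclic here, and animals carrying a pregnancy of 20-25, of 40-45 or of 150-160 days, insemination being day 1. None received a treatment that the labels name. The arrays lay on 2 slides, with replicates 1 and 2 of every group on slide 1 and replicates 3 and 4 on slide 2; each group had its own places on the slide, so place and group cannot be told apart, nor can pregnancy and the age of the gland.

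Macrophages take up and digest dead cells, debris and antibody-coated particles, and present antigen. In the corpus luteum they are known mainly from regression, when they clear dying luteal cells, and from the vascular remodelling of a growing gland. The products of the 6 genes work at different steps. ITGAM is the alpha chain of the integrin CD11b/CD18, which binds complement-coated particles and lets cells adhere, and it is abundant on monocytes, granulocytes and natural killer cells as well. CYBB is the catalytic subunit of the NADPH oxidase, which makes superoxide in phagocytes. CD68 is a glycoprotein of late endosomes and lysosomes, MRC1 is the mannose receptor that takes up glycoproteins, FCGR1A is the high-affinity receptor for IgG, and AIF1 (IBA1) is an actin-bundling protein of phagocytic cells. In RNA from whole tissue, fewer cells of a type and less RNA per cell cannot be told apart.

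The probes are shown because every value below is the brightness of 1 such 60-base oligonucleotide, and because the 6 differ in how firmly they are tied to their gene. The CYBB, AIF1 and FCGR1A probes carry a RefSeq accession, the ITGAM probe carries the gene's symbol, the CD68 probe was designed on a cDNA sequence tag, and the MRC1 spot is named only as similar to human MRC1. Bases are written 5′ to 3′ as on the array: the whole ITGAM probe, bases 1 to 50 of CYBB, bases 31 to 60 of AIF1 and bases 1 to 30 of the others. Capitals mark the TAA stop codon in CYBB, AATAAA, the usual polyadenylation signal, in AIF1, and TTTATT, its reverse complement, in CD68.
ITGAM: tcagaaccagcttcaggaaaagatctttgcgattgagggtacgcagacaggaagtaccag
CYBB: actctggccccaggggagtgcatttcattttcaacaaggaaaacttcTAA
CD68: ggatgagggaaaagatgTTTATTaaatatg
MRC1: tctgccccaagcaagattttccaggctgaa
AIF1: taacttaAATAAAttatcctccttcagatg
FCGR1A: tcccttggcatcttactcttcaatagagca

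AATAAA occurs in 11.27% of all 15208 probes and TTTATT in 4.14%, both read on the strand as printed. The CD68 probe has 0 forward reading frames without a stop and 2 on the other strand. Which strand of the CD68 transcript this probe detects was not tested, so its values are those of the CD68 probe. The integrin alpha chains form a gene family, and whether the ITGAM probe also binds transcripts of its relatives was not tested.

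Levels are log2 of the background-subtracted signal minus the 75th percentile of the same array, so 0 is the level of a probe brighter than 75% of that array's probes. The 75th percentile itself lay between 2020 and 4288 signal units, and 71.9% to 79.6% of probes per array were well above background. The tissue label was checked against 8 genes of luteal cells, all of them well above background on all 16 arrays. A level can be compared between groups for one probe, not between probes.

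ITGAM, the integrin chain of adhesion and complement uptake, was near the detection limit in 3 groups and clearly measured in the fourth. Its levels in cyclic cows were -7.57, -6.89, -9.17 and -6.87, and on days 20-25 of pregnancy -7.51, -7.22, -6.07 and -8.54. On days 40-45 they were -8.95, -6.86, -8.69 and -7.56, and on days 150-160 -4.14, -1.58, -5.46 and -3.69. The 4 late cows lay above all 12 others, and the 3 earlier groups overlapped one another. The probe was well above background on 1 of 4 arrays in each of the 3 earlier groups and on 4 of 4 late in pregnancy, where replicate 2 was far the brightest at 884 signal units against 60.7 to 168 in the other three.

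In order of stage the ITGAM means were -7.63 ± 1.08, -7.33 ± 1.02, -8.01 ± 0.98 and -3.72 ± 1.61 (SD, n = 4 each). The late mean was 3.91 ± 0.77 (SE) log2 units above the cyclic one, a 15-fold difference, and 4.29 ± 0.77 above days 40-45. Within slide 1 the difference from cyclic cows was 4.37 and within slide 2 it was 3.44. Most earlier arrays hold only a bound. A value not well above background is called under background where values are raised. With each such value raised to the dimmest well-measured signal of its array, the difference was 3.19. With another background correction, normexp with an offset of 50, which lifts dim signals, it was 1.93. The sizes of the ITGAM difference thus differ by setting, while the sign was positive in each of these.

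CYBB, the superoxide-making subunit, was well measured on all 16 arrays and its group mean was higher at each later stage. Cyclic cows had levels of -1.76, -1.22, 0.52 and -1.15, and cows on days 20-25 had -0.28, -0.54, -0.02 and -0.91. Levels were -0.07, -0.24, -0.39 and -0.08 on days 40-45 and 0.88, 0.19, 0.69 and 0.14 on days 150-160. All late cows stood above all cows of both earlier stages of pregnancy, but cyclic replicate 3 stood above 2 of the 4 late cows.

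The CYBB means were -0.90 ± 0.99, -0.44 ± 0.38, -0.19 ± 0.15 and 0.48 ± 0.37 in order of stage (SD, n = 4 each). Neighbours in this order overlapped except the last pair. The late mean was 1.38 ± 0.37 (SE) log2 units, or 2.60-fold, above cyclic cows and 0.67 ± 0.37 above days 40-45. Slide 1, which does not hold cyclic replicate 3, gave 2.03 and slide 2 gave 0.73. For CYBB on days 40-45 the difference from cyclic cows was 0.71. It was 1.18 without cyclic replicate 3 and 0.42 without cyclic replicate 1.

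**Figure D1:**
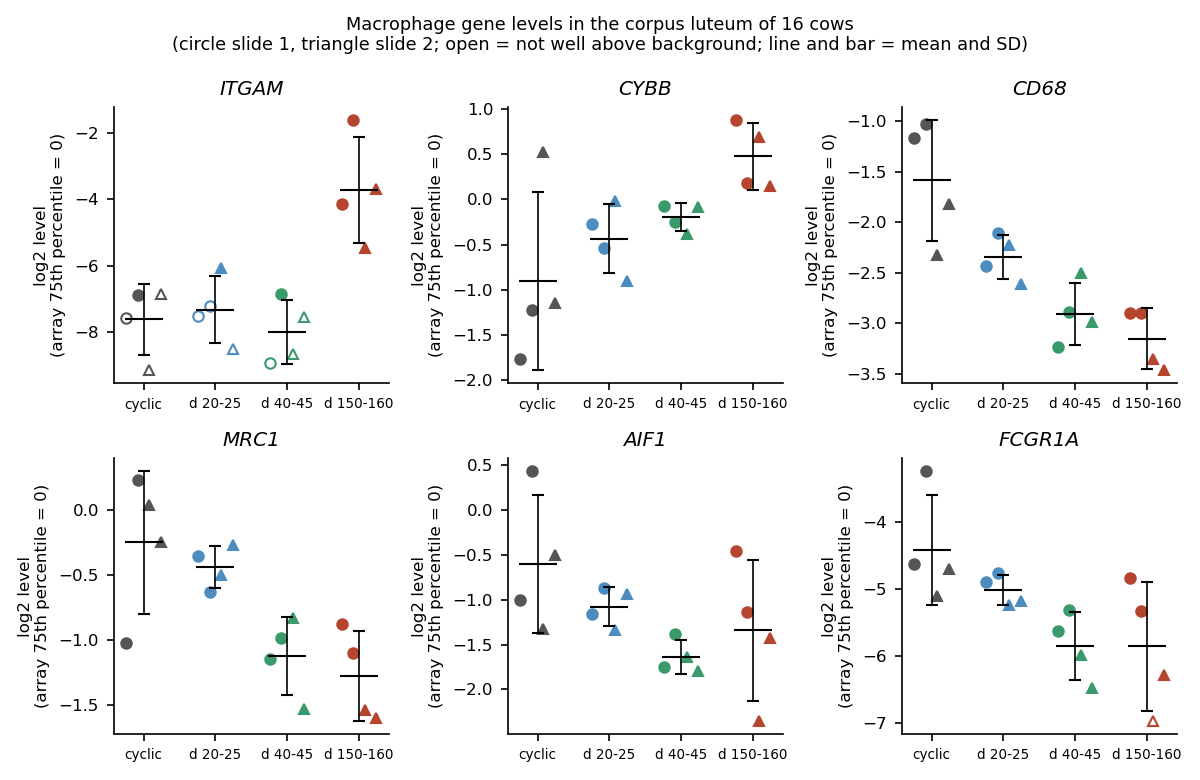
Log2 level of each of the 6 genes (vertical axis, 0 = the 75th percentile of the array) in 16 cows by group (horizontal axis); circles are slide 1, triangles slide 2, open symbols are not well above background, and the line and bar are the group mean and SD. ITGAM in the 4 cows of days 150-160 lies between -5.46 and -1.58, above all other cows, and CD68 in the same cows lies between -3.47 and -2.90, below every cyclic cow.

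CD68, the lysosomal glycoprotein, ran the other way. Its cyclic levels were -1.17, -1.03, -2.32 and -1.82, followed by -2.43, -2.11, -2.23 and -2.61 on days 20-25. Later levels were -3.24, -2.89, -2.50 and -2.99 on days 40-45 and -2.90, -2.90, -3.36 and -3.47 on days 150-160. Every cow of the 2 later stages lay below every cyclic cow, and cyclic replicate 3 was again the one nearest to the pregnant animals. Against cyclic cows the CD68 difference was -0.76 ± 0.26 (SE) on days 20-25, -1.32 ± 0.26 on days 40-45 and -1.57 ± 0.26 on days 150-160, the last a 2.97-fold lower level. The middle one was -1.97 within slide 1 and -0.68 within slide 2. Days 40-45 and days 150-160 overlapped, and each neighbouring pair of groups in the order of stages shared part of its range.

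MRC1, the mannose receptor, had lower levels on days 40-45 and 150-160 than on days 20-25. Cyclic cows had -1.02, 0.24, 0.04 and -0.24, and cows on days 20-25 had -0.35, -0.63, -0.50 and -0.27. Levels were -1.14, -0.98, -0.83 and -1.53 on days 40-45 and -0.88, -1.09, -1.54 and -1.59 on days 150-160. Both later groups lay wholly below days 20-25; cyclic replicate 1 lay among the later cows, so both overlapped the cyclic group. The difference from cyclic cows was -0.19 ± 0.25 (SE) on days 20-25, -0.87 ± 0.25 on days 40-45 and -1.03 ± 0.25 on days 150-160. The last was -0.59 within slide 1 and -1.47 within slide 2.

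FCGR1A, the IgG receptor, was dim, with levels of -4.63, -3.23, -5.11 and -4.70 in cyclic cows and -4.89, -4.76, -5.24 and -5.17 on days 20-25. It measured -5.63, -5.31, -5.99 and -6.48 on days 40-45 and -4.83, -5.33, -6.97 and -6.28 on days 150-160, where replicate 3 was not well above background. Days 40-45 lay wholly below both groups before them, and the late group overlapped every other group. The difference from cyclic cows was -1.44 ± 0.45 (SE) on both later stages, -0.73 on days 40-45 and -0.56 on days 150-160 after normexp.

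AIF1, the actin-bundling protein, had levels of -1.0, 0.44, -1.32 and -0.51 in cyclic cows and -1.16, -0.87, -1.34 and -0.94 on days 20-25. On days 40-45 it stood at -1.75, -1.38, -1.64 and -1.80, and on days 150-160 at -0.45, -1.14, -2.36 and -1.42. Only days 40-45 lay wholly below cyclic cows, at a difference of -1.04 ± 0.37 (SE). The late difference was -0.75 ± 0.37, and -0.40 without cyclic replicate 2. Late replicates 1 and 2 lay among the cyclic cows, and late replicate 3 lay below all other cows.

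These comparisons share the 4 cyclic cows, so they are not independent of one another. In a limma fit over all probes, the share of probes with an adjusted p under 0.05 was 0.293% for days 20-25, 1.23% for days 40-45 and 7.98% for days 150-160, each against cyclic cows, and 0.0419% on days 150-160 against days 40-45. Of the 6 genes 0, 1 (CD68), 4 (ITGAM, CYBB, CD68 and MRC1) and 0 were past that threshold in the same order. Leaving out 1 array gave 2 to 5 of the 6 late, with 2 left without cyclic replicate 2 or 4 or late replicate 3. Late, CYBB was no longer past the threshold without cyclic replicate 1, 2 or 4 or late replicate 1, 2 or 3, and MRC1 without cyclic replicate 2 or 4 or late replicate 3 or 4. On days 40-45 CD68 was not past it without cyclic replicate 2 or replicate 1, 2 or 4 of its stage, while CD68 and ITGAM late stayed past it whichever single array was left out. With the arrays of 1 slide alone, ITGAM and MRC1 late were not past it on slide 1 or on slide 2. CYBB late, CD68 late and CD68 on days 40-45 were not past it on slide 2. With only the 2 groups compared, CYBB late, MRC1 late and CD68 on days 40-45 were not past it. ITGAM was tested only because the late group, where it is high, met the filter. Since the genes were selected on these contrasts, nothing is read from those counts.

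**Figure D2:**
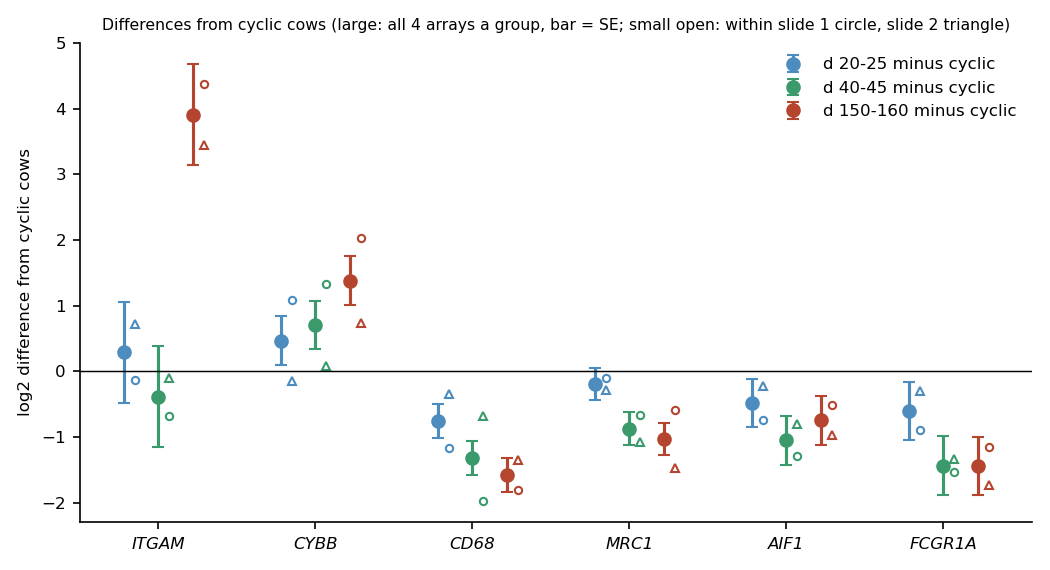
Log2 difference from cyclic cows (vertical axis) for each gene (horizontal axis) on days 20-25, 40-45 and 150-160; large points are all 4 arrays a group with the SE of the limma fit, small open symbols the same difference within slide 1 (circle) and slide 2 (triangle). On days 150-160 both slides lie above 0 for ITGAM and CYBB and below 0 for the other genes, with CYBB at 2.03 and 0.73.

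The deviation of each cow from the mean of its own group was not used to select the genes, so it allows a test of whether the genes vary together among cows of 1 stage. Over 16 cows and 15 pairs of genes, 1 pair passed: AIF1 and FCGR1A, with a Pearson r of 0.91 and a Spearman rho of 0.84 (100000 permutations of cows within groups, two-sided, p = 0.00029 and 0.00067, adjusted p = 0.00435 and 0.01005). Without the 2 cows farthest from the median of AIF1, r was 0.82 (adjusted p = 0.0471 by the same permutation). Leaving out each array in turn, r passed in 16 of 16 cases (adjusted p at most 0.0324), but rho did not in 4 of 16 (adjusted p 0.0534 to 0.0923, the highest without cyclic replicate 2). This permutation takes no account of the 2 slides. With the means of group and slide removed r was 0.95, and the pair did not pass (permutation adjusted p = 0.115), where no p can go below 0.00781 before adjustment. The highest cows on both axes were cyclic replicate 2 and late replicate 1, and the lowest was late replicate 3. Both values of a cow come from 1 array and share its scaling.

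ITGAM was not well above background on 9 of 16 arrays, so its deviations rest largely on such dim values and the 5 pairs that hold it are no test of whether it varies with the others. For ITGAM and CYBB r was -0.34; it was -0.19 with values under background raised, -0.071 after normexp and 0.036 without cyclic replicate 3. CD68 and FCGR1A gave r = 0.60 (rho = 0.56, permutation adjusted p = 0.300). CYBB and CD68 gave the lowest r of the 15, -0.55 (rho = -0.29, permutation adjusted p = 0.312), which was -0.01 without the 2 cows farthest from the median. The r of -0.55 thus rests on those cows.

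**Figure D3:**
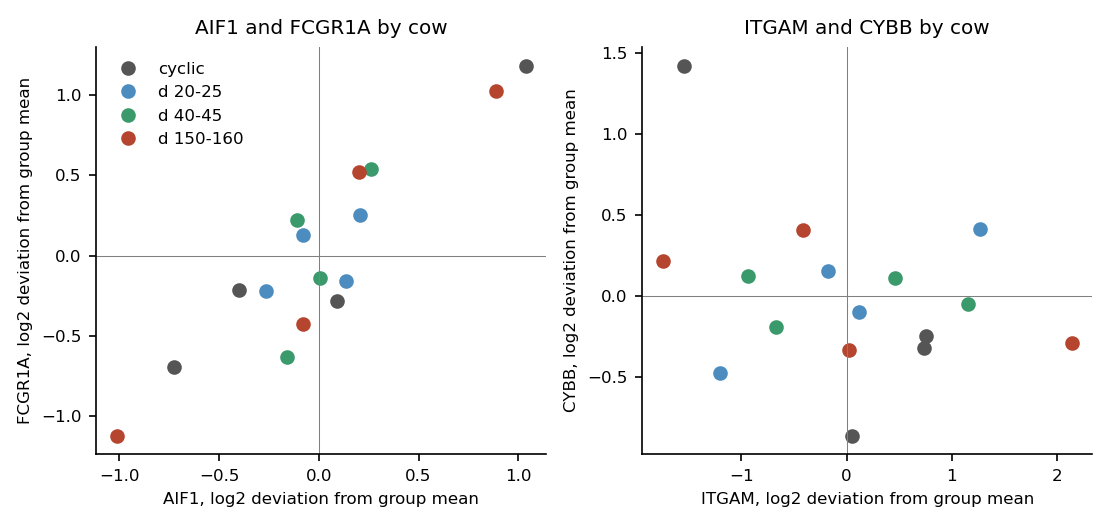
Deviation of each cow from its group mean in log2 units, AIF1 against FCGR1A (left) and ITGAM against CYBB (right), 1 point a cow, coloured by group. The left points follow a rising line (r = 0.91); on the right (r = -0.34) 9 of the 16 ITGAM values are not well above background, and cyclic replicate 3 lies at the upper left.

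To place the genes among others of similar work, 182 further genes in 16 lists were looked up, of which 125 were on the array and 110 were tested in the same fit, adjusted over all probes. Of the 110, 0 rose and 3 fell on days 20-25, 0 rose and 6 fell on days 40-45, and 2 rose and 9 fell on days 150-160, all against cyclic cows. That is 2.73%, 5.45% and 10% of these genes, beside the 0.293%, 1.23% and 7.98% of all probes. In each of these comparisons 3 of the falls were the granulocyte genes CATHL1, CATHL3 and CATHL4, described below. CATHL3 and CATHL4 were tested only because the cyclic group, where they are high, met the filter. The shares of these genes that passed are therefore not read as a result. With values under background raised, 0, 4 and 8 of the 110 passed in the same order. Against days 40-45, 0 passed on days 150-160 by limma, and 15 had an unadjusted p under 0.05. The share of all probes with an unadjusted p under 0.05 is not given here. Counts of such genes, here and below, are therefore not read as high or low. The median difference of the 110 was -0.30 on days 40-45 and -0.16 on days 150-160 against cyclic cows, beside 0.015 and 0.026 over all probes. None of the 110 is among the 6 genes above. The lists hold markers of one another's cell types, and their counts are not independent.

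None of the measured partners of CYBB passed the test. CYBA, the membrane partner without which CYBB is unstable, and NCF1 and NCF4, cytosolic subunits of the active enzyme, were among 7 tested subunits and partners. By limma 0 of the 7 passed in any of the 4 comparisons, and over these comparisons there was 1 unadjusted p under 0.05, on days 40-45 against cyclic cows. Their differences on days 150-160 against cyclic cows ranged from -0.52 to 0.04 with a median of -0.29, against 0.03 over all probes. CYBA was 0.30 ± 0.34 in cyclic cows and 0.01 ± 0.31 late in pregnancy (SD, n = 4 each), a difference of -0.29 ± 0.19 (SE, limma adjusted p = 0.381).

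ITGB2, the CD18 beta chain that pairs with ITGAM and its relatives, was 0.26 ± 0.32 in cyclic cows and -0.11 ± 0.68 on days 150-160 (SD, n = 4 each). The difference of -0.37 ± 0.26 (SE, limma adjusted p = 0.430) was 0.023 within slide 1 and -0.76 within slide 2. Of the 4 tested leukocyte integrins and ligands 0 passed by limma in any comparison, with a late median of -0.22 and 0 unadjusted p under 0.05 late against cyclic cows and 1 on days 40-45. For the Fc receptors and their signalling 0 of 5 passed by limma, and 2 had an unadjusted p under 0.05 late. FCER1G, the signalling chain that FCGR1A needs at the surface, was lower by 1.01 ± 0.37 log2 units on days 40-45 (SE, limma adjusted p = 0.210), the lowest of the 5. Against cyclic cows 2 of the 5 were higher and 3 lower on days 40-45 and late. The highest differences were 1.09 on days 40-45 and 1.55 late.

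Of 6 tested receptors of uptake 2 fell. CD36, a scavenger receptor for oxidised lipoprotein and fatty acids that microvascular endothelium also carries, was 0.07 ± 0.81 in cyclic cows, -2.69 ± 0.42 on days 40-45 and -2.21 ± 0.53 on days 150-160 (SD, n = 4 each). These were falls of 6.78-fold and 4.87-fold (limma adjusted p = 0.00563 and 0.00486), with no overlap of cows. TIMD4, a receptor for phosphatidylserine on dying cells that marks resident macrophages, fell 2.88-fold on days 40-45 and 4.67-fold on days 150-160 (limma adjusted p = 0.0417 and 0.0015), also with no overlap; the call on days 40-45 was lost in 14 of 28 other settings, of which 10 each left out 1 array (limma adjusted p at most 0.116 in these 10). The other 4 tested receptors of that list did not pass, among them the scavenger receptor MSR1 at -0.77 ± 0.33 (SE, limma adjusted p = 0.174) on days 150-160.

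Of 16 lysosomal genes tested 0 passed by limma in any comparison, 2 had an unadjusted p under 0.05 late, and their late median was 0.25 against 0.03 over all probes, while the lysosomal CD68 was 1.57 lower. Among 11 other monocyte and macrophage markers 1 passed: SPP1, osteopontin, fell 5.83-fold on days 150-160 (-2.54 ± 0.65, SE, limma adjusted p = 0.028), with no overlap; without late replicate 1 or 4 the adjusted p was 0.0636 or 0.0725. CD14, the lipopolysaccharide co-receptor of monocytes, was -2.23 ± 0.76 in cyclic cows and -2.17 ± 0.22 late (SD, n = 4 each), a difference of 0.06 ± 0.31 (SE, limma adjusted p = 0.930). C1QA and CD80 of that list were not well above background in any cow. CSF1R and SPI1 were not analysed here, and 0 of 4 tested growth and transcription factors of macrophages passed by limma, with 1 unadjusted p under 0.05 late.

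CXCL12, which draws monocytes and lymphocytes, was 1 of the 2 genes that rose on days 150-160, 2.25-fold (1.17 ± 0.29, SE, limma adjusted p = 0.0264), although the groups overlapped. Leaving out cyclic replicate 2 or 4 or late replicate 1 or 2 ended that call (adjusted p 0.0661 to 0.0766). PTGFR, the luteal receptor for prostaglandin F2 alpha, was the other, at 0.85 ± 0.21 (SE, limma adjusted p = 0.0221), lost without cyclic replicate 1 or late replicate 2 (adjusted p = 0.0551 and 0.0636). Of the 5 tested dendritic cell and MHC class II genes CD83 fell, by 1.70 ± 0.37 log2 units (SE, limma adjusted p = 0.0138), with late replicate 2 among the cyclic cows.

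**Figure D4:**
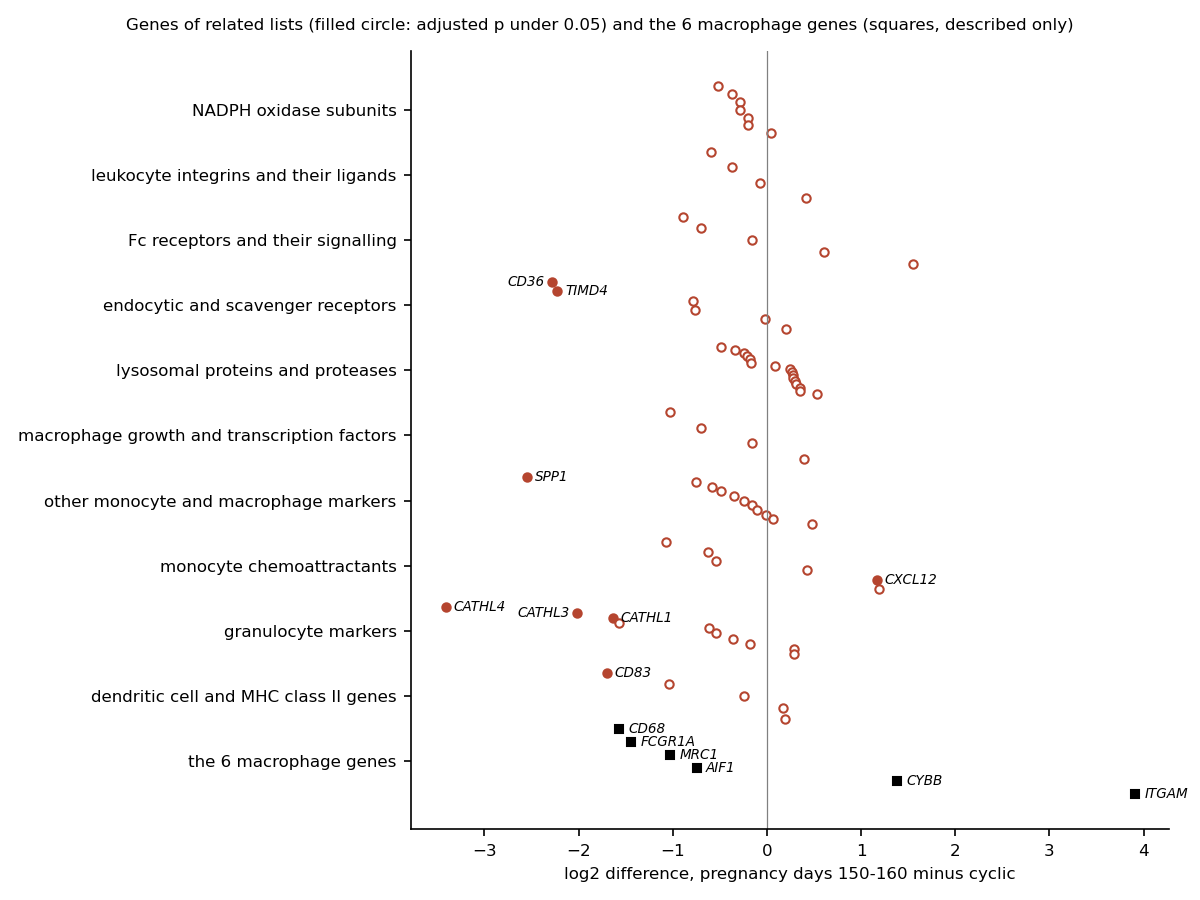
Log2 difference between days 150-160 and cyclic cows (horizontal axis) for the tested genes of 10 lists (rows, 1 circle a gene, filled where the limma adjusted p is under 0.05) and the 6 macrophage genes (squares, described only). The NADPH oxidase subunits lie between -0.52 and 0.04, while CYBB lies at 1.38 and ITGAM at 3.91.

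ITGAM and CYBB are also expressed by granulocytes, so markers of those cells are given beside them. Of 10 tested granulocyte genes 3 passed as lower in all 3 stages against cyclic cows, the cathelicidins CATHL1, CATHL3 and CATHL4, and 0 rose. On days 150-160 against cyclic cows 2 of the 10 differences were positive and 8 negative. Against days 40-45 all 10 late differences were positive, from 0.24 to 1.07. Their median was 0.39, beside 0.011 over all probes, and 0 passed by limma. Leaving out 1 array ended the call for CATHL1 in 6 of 16 cases on days 20-25 and 5 of 16 late (limma adjusted p 0.0503 to 0.0738). For CATHL3 on days 20-25 the call ended in 4 of the 13 cases in which it was tested (limma adjusted p at most 0.102). In the rest of the 16 cases, each without a cyclic array, CATHL3 did not pass the filter. CATHL3 was thus tested only through the cyclic group, where it is high. CATHL4 was well above background in 4 of 4 cyclic cows and in 0 of 12 pregnant ones, so it too passed the filter only through the cyclic group. It was at least 2.16-fold lower on days 150-160, with values under background raised to the dimmest well-measured signal (limma adjusted p = 0.0479). On the measured values, with means of -8.74 and -5.33, the limma adjusted p was 6.87e-05. Nothing is read from the p values of CATHL3 and CATHL4, since the filter used the same values. With values under background raised, CATHL4 passed on days 40-45 and 150-160, and the other 7 of these 9 differences did not pass. Among those 7, CATHL3 on days 150-160 was only 1.05-fold lower than in cyclic cows (limma adjusted p = 0.880). The summed linear level of all 11 granulocyte genes on the array ranged from 2.93 to 8.87 in cyclic cows and from 2.87 to 4.49 late, in multiples of the array's 75th percentile, and 6 of the 11 were well above background on all 16 arrays. Their part in the ITGAM and CYBB values was not tested.

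Few markers of other leukocytes passed. KLRB1, a receptor of natural killer cells, was the 1 of 14 T and NK cell genes that passed, falling by 1.03 ± 0.28 log2 units late (SE, limma adjusted p = 0.0366). Of these 14 genes 8 were higher and 6 lower late than in cyclic cows, with a median difference of 0.12. On days 40-45 against cyclic cows 2 were higher and 12 lower. Late against days 40-45, 11 were higher and 3 lower. JCHAIN, the joining chain of secreted immunoglobulin, was the 1 of 4 B and plasma cell genes, lower by 1.71 ± 0.37 on days 40-45 and 1.31 ± 0.37 late (SE, limma adjusted p = 0.0399 and 0.0422). Leaving out 1 array ended the call in 6 of 16 cases for KLRB1, and in 11 and 12 of 16 for JCHAIN. PTPRC, the CD45 antigen of all leukocytes, was 1.01 ± 0.35 lower late (SE, limma adjusted p = 0.0936), and 0 of 5 pan-leukocyte genes passed by limma, with 3 unadjusted p under 0.05 late against cyclic cows. Of these 5 genes 2 were higher and 3 lower late, with differences from -1.01, that of PTPRC, to 0.93. The summed level of 16 T and NK genes was 0.93 to 2.13 in cyclic and 1.22 to 3.27 in late cows, with CD28 not well above background in any cow; that of 6 B and plasma cell genes was 0.37 to 1.13 and 0.29 to 0.56. Of 4 eosinophil and mast cell genes, CCR3 was not well above background in any cow, and the sum was 0.12 to 0.15 in cyclic and 0.17 to 0.27 in late cows. Their part in the 6 genes' values was not tested.

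The genes whose levels ran most like each of the 6 over all 16 arrays were ranked by Pearson r among tested probes with a symbol, as a description: all points share the arrays and their scaling. CD68 ran most like TIMD4 (r = 0.92), the caspase CASP6 (0.92) and the lysosomal thiol reductase IFI30 (0.91). FCGR1A ran most like MPEG1, the perforin-like protein of macrophages (0.92), AIF1 (0.92) and TEX12 (0.92), the last well above background on 7 of 16 arrays. AIF1 was most like FCGR1A (0.92), the haematopoietic signalling protein VAV1 (0.92) and the MHC class II gene BOLA-DRA (0.91). MRC1 was most like complement C2 (0.87), RIMBP2 (0.86) and GMFG (0.86). CYBB had no leukocyte gene among its nearest: they were MAPRE3 (0.90), SOST (0.88) and the fibrinogen gene FGG (0.87).

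ITGAM ran most like the neurofilament gene NEFM (r = 0.89), PYCARD (0.89) and the pregnancy-associated glycoprotein PAG12 (0.82). ITGAM was well above background on 7 of the 16 arrays, NEFM on 5, PAG12 on 8 and PYCARD on 16, so these ranks rest largely on values not well above background. After group means were removed the r was 0.56, 0.64 and 0.43, against 0.70 to 0.795 for the nearest of CD68 and 0.88 to 0.92 for those of AIF1. PYCARD, the adaptor ASC that joins inflammasome sensors to caspase 1, was -1.84, -1.65, -2.30 and -2.25 in cyclic cows, -2.11, -2.06, -1.99 and -1.87 on days 20-25 and -2.16, -1.63, -1.81 and -1.40 on days 40-45. In the late cows it was 0.47, 0.63, -0.97 and 0.39, all above the other 12, and replicate 3, the lowest for ITGAM too, was the lowest. The late difference from cyclic cows was 2.14 ± 0.29 (SE); it is given with no test, since PYCARD was picked for its likeness to ITGAM.

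In the gene order of the RefSeq assembly ARS-UCD2.0, PYCARD lies 2 protein-coding genes from ITGAM. This was looked up after the likeness was seen. Among the protein-coding genes up to 15 places from ITGAM on each side, 11 genes on the array are described here. The 10 other than PYCARD differed by -0.66 to 0.33 between days 150-160 and cyclic cows, with r to ITGAM from -0.36 to 0.44. By limma 0 of these 10 passed (lowest adjusted p = 0.187), and 1 had an unadjusted p under 0.05.

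**Figure D5:**
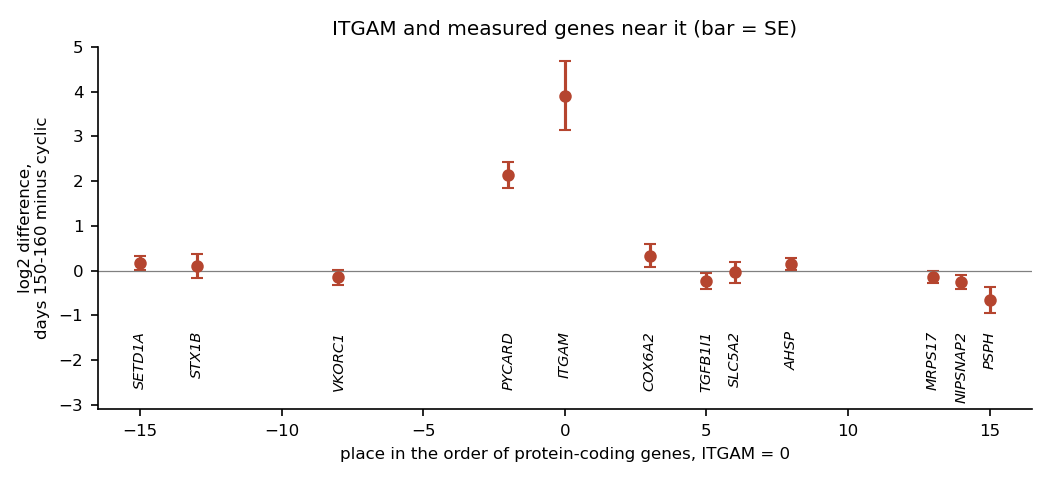
Log2 difference between days 150-160 and cyclic cows (vertical axis, bar = SE of the limma fit) for ITGAM and 11 measured genes near it, by place in the order of protein-coding genes (horizontal axis, ITGAM = 0). ITGAM at 3.91 and PYCARD at 2.14 stand above the other genes shown, which lie between -0.66 and 0.33.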

How the data were processed

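Scans were read with Agilent Feature Extraction 9.5, per the submitters' processing notes. The processed signal deposited per array is an intensity on a linear scale, background-subtracted and not scaled between arrays, per the file headers. The deposited value table is on a log2 scale and served as an alternative only; its columns equal log2 processed signal minus a constant per array within 0.005.

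Per array 536 control spots were dropped, and 220 outlier-flagged spots were treated as missing. Levels are log2 processed signal minus the array's 75th percentile. Probes well above background and unflagged on at least 3 of 4 arrays of at least 1 group were tested (11941; 11940 for days 150-160). limma 3.58.1 (lmFit, eBayes) in R 4.3.3 fitted group over all 16 arrays, with 12 residual degrees of freedom and Benjamini-Hochberg adjustment at 0.05, two-sided, and was tested on simulated data. A gene's brightest probe stands for it. Probes were named through accessions (2496), gene IDs (1984), symbols (1562) or human genes in the description (988); 8178 have no symbol.

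The 6 genes, the lists and the tests were chosen with earlier results of these data known. Named beyond the 6 were ITGB2, CYBA, NCF1, NCF4, FCER1G and CD14, up to 4 called genes per list and comparison, and the 3 most alike genes per member; MSR1, PTPRC and the neighbours of ITGAM were added after their values were seen. Values of 2 further genes are not reported here. Promoters and proteins were not used here. The number of arrays, 4 a group, limits the precision.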

Additional observations from a re-analysis of the deposited data

Results flagged for a closer look

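Of 155 groups of 4 values, for 39 named genes, 7 held a cow far from the other 3 by Dixon's criterion at 95%; chance gives about 1 in 20 such groups. None of the 7 was a value of ITGAM, CYBB, CD68, MRC1, AIF1 or FCGR1A. TIMD4 in cyclic replicate 3 was -0.997 against 0.06 to 0.23 in the other cyclic cows, and in late replicate 4 it was -2.92 against -2.25 to -2.14. PYCARD in late replicate 3 was -0.97 against 0.39 to 0.63. CD83 in late replicate 2 was 2.27 against 0.45 to 0.47. NEFM in cyclic replicate 2 was -5.65 against -9.39 to -9.08, and SOST in late replicate 1 was -1.62 against -3.11 to -2.86. CATHL4 on days 20-25 was -9.32 in replicate 1 against -8.54 to -8.44, all of them not well above background.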

How the results depend on the processing

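Each of the 24 differences of the 6 genes (4 comparisons) was recomputed under every alternative, 622 values in all, of which 606 kept their sign and 18 moved by at least 1 SD of the spread between cows. The 16 sign changes were in differences that were not past the threshold. After normexp the ITGAM difference on days 150-160 was 1.93 from cyclic cows and 1.97 from days 40-45, and the FCGR1A differences from cyclic cows were -0.73 on days 40-45 and -0.56 on days 150-160. Within slide 1 and slide 2 in turn, CYBB minus cyclic was 1.09 and -0.15 on days 20-25, 1.34 and 0.082 on days 40-45, and 2.03 and 0.73 on days 150-160. CD68 minus cyclic was -1.17 and -0.35 on days 20-25 and -1.97 and -0.68 on days 40-45, its late minus days 40-45 difference was 0.17 and -0.67, and MRC1 on days 150-160 was -0.59 and -1.47.

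Numbers of probes called moved more. With normexp 94 were called on days 40-45, and 0 related genes on days 20-25. Raising values under background left 0 related genes on days 20-25 and gave 9 probes between days 150-160 and days 40-45, as did the deposited table (9). Slide as a block gave 78 probes on days 20-25 and 13 in the late against days 40-45 comparison. The replicate block gave 14 there and moved no other count by over 1.5 times. Deviations of same-numbered arrays of different groups correlated over 0.1 in 9 of 24 pairs, and those of other numbers on the same slide in 10 of 24. The median r was 0.090 and 0.045, and this cannot settle whether the replicate numbers pair the arrays beyond the slide. For arrays of different groups on different slides 0 of 48 pairs were over 0.1, and the median r was -0.091. Deviations thus ran more alike within a slide than between slides. No filter gave 90 on days 40-45 and 17 between the later stages. Only probes well above background on all 16 arrays left 0, 3 and 7 related genes in the 3 comparisons with cyclic cows, and 2 probes between the later stages. Slide 1 alone, with 2 arrays a group, called 3, 53, 259 and 2 probes in the 4 comparisons and 1, 3 and 6 related genes in the first 3. Slide 2 alone called 7, 13, 25 and 0 probes and 0, 0 and 1 related genes. Only the 2 groups compared called 2, 78, 316 and 1 probes and 0, 2 and 3 related genes. The causes were not tested.

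Leaving out 1 array gave 4 (without days 20-25 replicate 2) to 82 probes (without cyclic replicate 1) on days 20-25, 63 to 224 on days 40-45, 571 to 1108 on days 150-160 and 2 to 19 between the later stages. Related genes called ranged from 1 (without cyclic replicate 2) to 5, from 3 (without cyclic replicate 2) to 8, and from 6 (without cyclic replicate 4) to 15, the highest of each without cyclic replicate 3. Calls were lost in 16 of 28 settings for JCHAIN late, 15 of 28 on days 40-45, and 11 of 27 for KLRB1. ITGB2 on days 150-160 was 0.023 within slide 1. Taking deviations from the mean of group and slide gave r = 0.95 for AIF1 and FCGR1A (permutation adjusted p = 0.115), so 0 pairs passed; with 8 pairs of arrays to permute, no p can go below 0.00781. Without single arrays the r of ITGAM and CYBB ran from -0.48 to 0.036. ITGAM is limited by signal over background in 3 groups.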
